A study of Mus musculus with 2 samples.

Results

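The 9 genes described here make or convert nicotinamide adenine dinucleotide (NAD) and its phosphate NADP: Nmrk1, Nmrk2, Nampt, Nmnat1, Nmnat2, Nmnat3, Naprt, Nadk and Nnt. Their peaks were taken from a table of open chromatin in mouse heart, in which each of 58076 peaks carries the gene that the authors assigned to it, and 21 peaks belonged to 7 of the 9 genes. No peak was assigned to Nmrk1 or Nmnat1. The genes were chosen by a measured value, the low knockout to control ratio at the Nmrk2 promoter, with results of this comparison known. All ratios below are therefore a description and carry no test.

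Chromatin was assayed by ATAC-seq, in which the transposase Tn5 inserts adapters into accessible DNA, on nuclei of hearts from mice 15 days old on normal chow. The control library came from Ythdc1flox/flox mice, which carry loxP-flanked Ythdc1 alleles, and the other library from Ythdc1 CKO mice, in which Ythdc1 was deleted in the heart. Ythdc1 encodes a nuclear protein that binds N6-methyladenosine in RNA. The sources used here do not give the driver of the deletion, the strain, the sex or the number of animals behind each library. There was 1 library per genotype, so no difference has a replicate check, and each 95% interval covers counting error only.

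NAD carries electrons in energy metabolism and is consumed by sirtuins, poly(ADP-ribose) polymerases and CD38, so cells rebuild it continually. Nampt converts nicotinamide to nicotinamide mononucleotide and sets the pace of the main salvage route. The kinases Nmrk1 and Nmrk2 make the same mononucleotide from nicotinamide riboside, and Nmrk2 is the form of skeletal muscle and heart. The Nmnat enzymes then join the mononucleotide to adenylate, Naprt opens the route from nicotinic acid, Nadk phosphorylates NAD to NADP, and Nnt, in the inner mitochondrial membrane, passes hydride between NADH and NADP.

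RefSeq promoter windows (GRCm38.p6) were matched by symbol for 7 of the 9 genes, with none for Naprt and Nnt. The 250 bases before a start are shown for the 3 members whose start regions are contrasted below, and for Atcayos, a noncoding RNA gene that runs opposite to Nmrk2 and has the other low peak at that locus. Capitals mark each CG pair, the TATAAA of a TATA box and, in Nampt, the E-box CAGCTG. They are written 5′ to 3′ on the gene's strand, for chr10:81202038-81202287 (minus, Nmrk2), chr10:81194441-81194690 (plus, Atcayos), chr1:152954851-152955100 (plus, Nmnat2) and chr12:32820085-32820334 (plus, Nampt).
Nmrk2: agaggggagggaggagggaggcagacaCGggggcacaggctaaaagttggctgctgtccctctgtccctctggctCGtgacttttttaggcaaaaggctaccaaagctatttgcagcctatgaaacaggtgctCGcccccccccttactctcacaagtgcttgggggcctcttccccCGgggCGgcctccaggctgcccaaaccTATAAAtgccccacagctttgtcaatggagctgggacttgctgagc
Atcayos: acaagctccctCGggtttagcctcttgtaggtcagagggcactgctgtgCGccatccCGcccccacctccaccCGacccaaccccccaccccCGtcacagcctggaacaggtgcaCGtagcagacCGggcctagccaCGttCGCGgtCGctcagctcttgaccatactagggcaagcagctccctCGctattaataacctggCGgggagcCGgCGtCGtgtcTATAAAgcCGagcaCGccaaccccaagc
Nmnat2: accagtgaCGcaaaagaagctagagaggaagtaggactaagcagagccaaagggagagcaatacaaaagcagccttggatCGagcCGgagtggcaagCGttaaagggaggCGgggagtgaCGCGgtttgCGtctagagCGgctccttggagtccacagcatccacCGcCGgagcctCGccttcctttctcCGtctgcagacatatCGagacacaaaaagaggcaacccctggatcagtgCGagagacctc
Nampt: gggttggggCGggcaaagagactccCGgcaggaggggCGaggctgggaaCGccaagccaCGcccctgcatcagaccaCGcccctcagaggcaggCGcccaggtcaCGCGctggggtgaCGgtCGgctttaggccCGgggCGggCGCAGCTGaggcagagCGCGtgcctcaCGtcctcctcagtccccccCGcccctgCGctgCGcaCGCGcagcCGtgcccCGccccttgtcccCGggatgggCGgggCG

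The Nmrk2 window held 5 CG pairs, against 27 in Nampt, 21 in Nmrk1, 15 in Nmnat2, 9 in Nmnat3 and a median of 6 over all 32851 RefSeq windows. Both Nmnat1 windows held more, 24 and 23, and those of Nadk held 18 and 4. TATAAA, a motif added after the sequences had been seen, lay at bases -46 to -41 in Nmrk2 and -28 to -23 in Atcayos, and was in no other member's window. Of all windows, 12.4% held it on either strand. The GATA motif AGATAA (in 9.99% of windows), the TEAD motif GGAATG (12.6%), the cyclic AMP element TGACGTCA (1.55%), the MEF2 motif (3.20%), the CArG box (1.47%), the NRF1 motif (0.782%) and the DR1 nuclear receptor motif (0.0335%) were in none of the members' windows, searched on both strands. The E-box, in 13.0% of windows, was in Nampt alone among the members. These matches describe the letters only.

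Both peaks of Nmrk2 (ENSMUSG00000004939, chromosome 10, 81198170 to 81202265) had fewer counts in the knockout library, and the loss was uneven between them. The peak over the transcription start, from 81201907 to 81202187, held 300 counts in the control against 233 in the knockout. The peak just upstream, from 81202409 to 81202757, at -358 bp from the start in the authors' annotation, held 302 and 127. The 2 peaks were thus about level in the control library, and the upstream one was the lower in the knockout.

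As CPM, each library's counts scaled to the same total in peaks, the knockout to control ratio was 0.811 (95% interval 0.681 to 0.966) over the start and 0.439 (0.354 to 0.542) upstream, log2 ratios of -0.30 and -1.18. The upstream peak made up 50.2% (exact binomial interval 46.1 to 54.2) of the counts of both peaks in the control against 35.3% (30.3 to 40.5) in the knockout. These shares are taken within a library and do not depend on how the libraries are scaled. In the authors' deposited table, whose RPM values scale each library by a constant of its own, the log2 fold changes were -0.47 and -1.35. The authors called the upstream peak in the control library alone and the start peak in both. The upstream peak was not absent from the knockout library, where it held 127 counts against a median of 60 per peak. The printed Nmrk2 sequence overlaps the start peak by 150 bases and begins 121 bases short of the upstream peak, whose own sequence is not shown.

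Promoter peaks are here those that the authors annotated as within 1 kb of a transcription start, without their wider promoter classes. Among all 19366 of them, 319 had a lower ratio than the upstream Nmrk2 peak. None of the 6509 with at least its mean count did. This standing is what brought the gene to attention, so it is no independent evidence. Nmrk2 was also the most open of the members per length. Its start peak had 158 CPM per kb of peak in the control (interval 141 to 177) and its upstream peak 128 (114 to 143), above 99.8% and 99.3% of promoter peaks. In the knockout they had 128 (112 to 146) and 56.3 (46.9 to 67.0) CPM per kb. The 2 peaks are narrow, 281 and 349 bp, and a level per length ranks narrow peaks higher. By mean count, 4858 of the 19366 promoter peaks were at least as strong as the start peak.

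**Figure D1:**
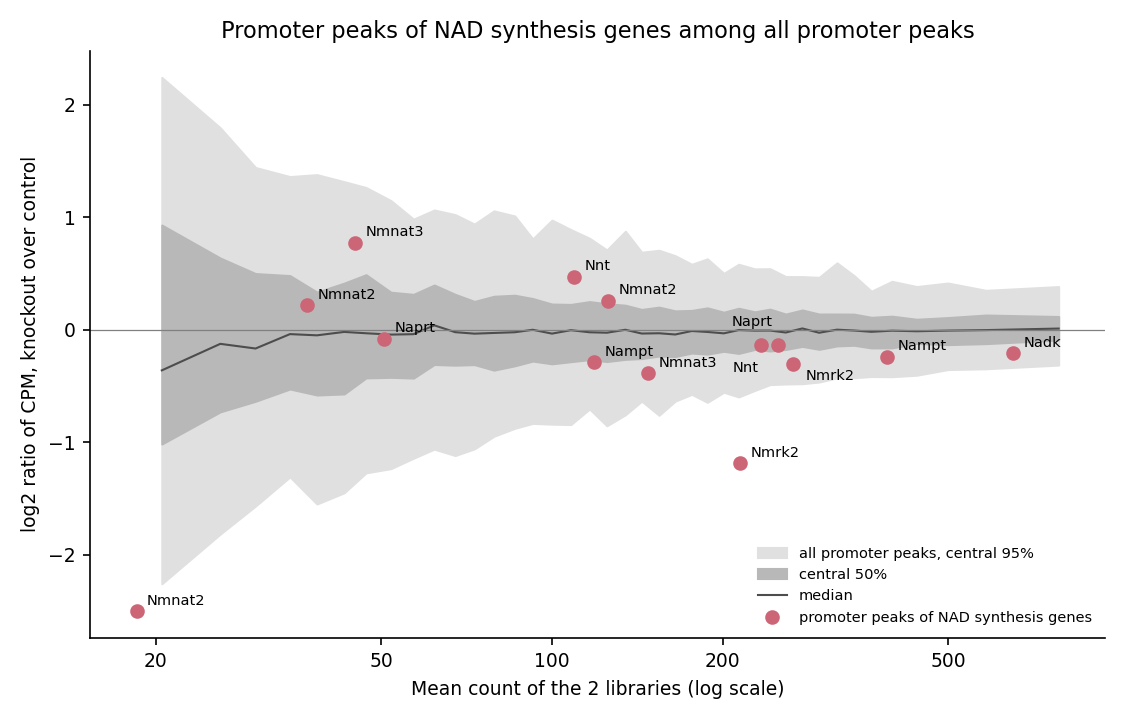
Each point is a promoter peak of an NAD synthesis gene, placed by its mean count over the 2 libraries (horizontal, log scale) and its log2 ratio of CPM (vertical). Grey bands give the central 50% and 95% of all 19366 promoter peaks in 40 bins of equal size by mean count. The upstream Nmrk2 peak, at -1.18, lies below the 95% band at its level, and the lowest point, the weak Nmnat2 start peak at -2.50, lies left of the centre of the first bin, whose 95% band ends at -2.26.

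The libraries held 6755590 counts in peaks in the control against 6466537 in the knockout. The authors called 7 of the 21 member peaks in 1 library alone, which selects them for a high count there. Called in both were 14 of the 21, and 31957 of all 58076 peaks. Over all peaks, 48842 were called in the control library and 41191 in the knockout library. A call in the control alone was thus more frequent than a call in the knockout alone. Markers of heart cells also differed between the libraries, not all in the same direction within a type. Of 10 cardiomyocyte markers 9 had a promoter peak, and their summed level was 403 CPM in the control against 361 in the knockout, single genes running from 15.5 to 118 and from 10.7 to 117 CPM. Their log2 ratios ran from -0.72 to 0.23 with a median of -0.44, 6 below 0 and 3 above. The interval lay below 1 for 5 of the 9 and above 1 for none, against 16.5% and 13.5% of all named genes. All 7 endothelial markers had a promoter peak, with 130 and 158 CPM in all and a median of 0.30, 5 above 0 and 2 below. Their interval lay above 1 for 2 of the 7 and below 1 for none. Each marker was read at its strongest promoter peak. For Nmrk2 that is the start peak, at -0.30, which lay within the range of the 9 cardiomyocyte markers. The upstream Nmrk2 peak, at -1.18, lay below each of them. It is the weaker peak by mean count, and the genes were chosen on its low ratio, so that comparison is unlike and nothing is read from it.

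Fibroblast markers, 6 of 8 with a promoter peak, had 90.0 and 110 CPM with a median of 0.05. They were split, 3 above 0 and 3 below, from -0.76 to 0.83, with the interval above 1 for 2 of the 6 and below 1 for none. Skeletal muscle, where Nmrk2 is also active, had 3 of 11, Tnnt3, Tnni2 and Mylpf, with 140 and 129 CPM and a median of -0.63. Most of that sum was Mylpf, with 763 and 729 counts, while Tnnt3 (73 and 45 counts, ratio 0.644, 0.434 to 0.946) and Tnni2 (113 and 63, 0.582, 0.421 to 0.800) had intervals below 1. No promoter peak was found for its defining genes Myod1, Myog and Myf5. None of 6 myeloid markers had a promoter peak. A gene whose identifier was not matched to a symbol also counts as having none, and 76.0% of identifiers were matched. Such absences, here and for the other markers, therefore do not show closed chromatin. In whole heart, fewer cells of a type cannot be told apart from less open chromatin per cell, and the part of cell composition in the Nmrk2 difference was not tested. The Ythdc1 promoter peak, 358 and 314 counts, need not lie in the deleted part and does not check the genotype.

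Peaks near Nmrk2 differed in both directions. Within 200 kb of its start there were 44 peaks, and the median log2 ratio of the 42 not assigned to Nmrk2 was 0.03. Of the 44, 2 were at least 2-fold lower in the knockout and 1 higher. The shares were 8.96% and 6.09% of all peaks, and 2.87% and 2.7% of all promoter peaks. Most of the 44 are promoter peaks, as are all those past 2-fold, and whether such differences were more frequent here was not tested. The lower ones were the upstream Nmrk2 peak and a peak from 81194468 to 81194702, at -7.45 kb from the start on the plus strand. That peak covers the RefSeq start of Atcayos and had 195 counts in the control against 92 in the knockout (ratio 0.493, 0.380 to 0.635, called in the control alone). A peak from 81193123, assigned to the same identifier, had 195 and 232.

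On the other side of Nmrk2 the difference had the opposite direction. A broad peak from 81211629 to 81212789, 10.2 kb from the Nmrk2 start and assigned to Atcay, the gene of the neuronal protein caytaxin, held 209 counts in the control against 456 in the knockout. Its ratio was 2.28 (1.93 to 2.70), and it was the only one of the 44 at least 2-fold higher. It was called in the knockout alone, though its 209 control counts were above that library's median of 65 per peak.

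Farther than 12 kb from the Nmrk2 start, none of 38 peaks differed 2-fold. That distance was set after the Atcay peak had been seen and leaves out every peak past 2-fold, so nothing is read from it. The counting interval excluded 1 for 10 of the 38. Over all peaks it lay below 1 for 21.7% and above 1 for 17.7%. Among the 38 the lowest log2 ratio was -0.95, at the promoter of Creb3l3, a transcription factor gene of liver and gut. The highest was 0.89, at Tbxa2r, the thromboxane receptor gene. The strong promoter of Dapk3, a kinase gene next to Nmrk2, had 516 and 506 counts. That of Eef2, the translation elongation factor gene beside it, had 278 and 364 (ratio 1.37, 1.17 to 1.60), and a promoter peak of Zbtb7a, a transcription factor gene, had 718 and 480 (0.698, 0.621 to 0.785).

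**Figure D2:**
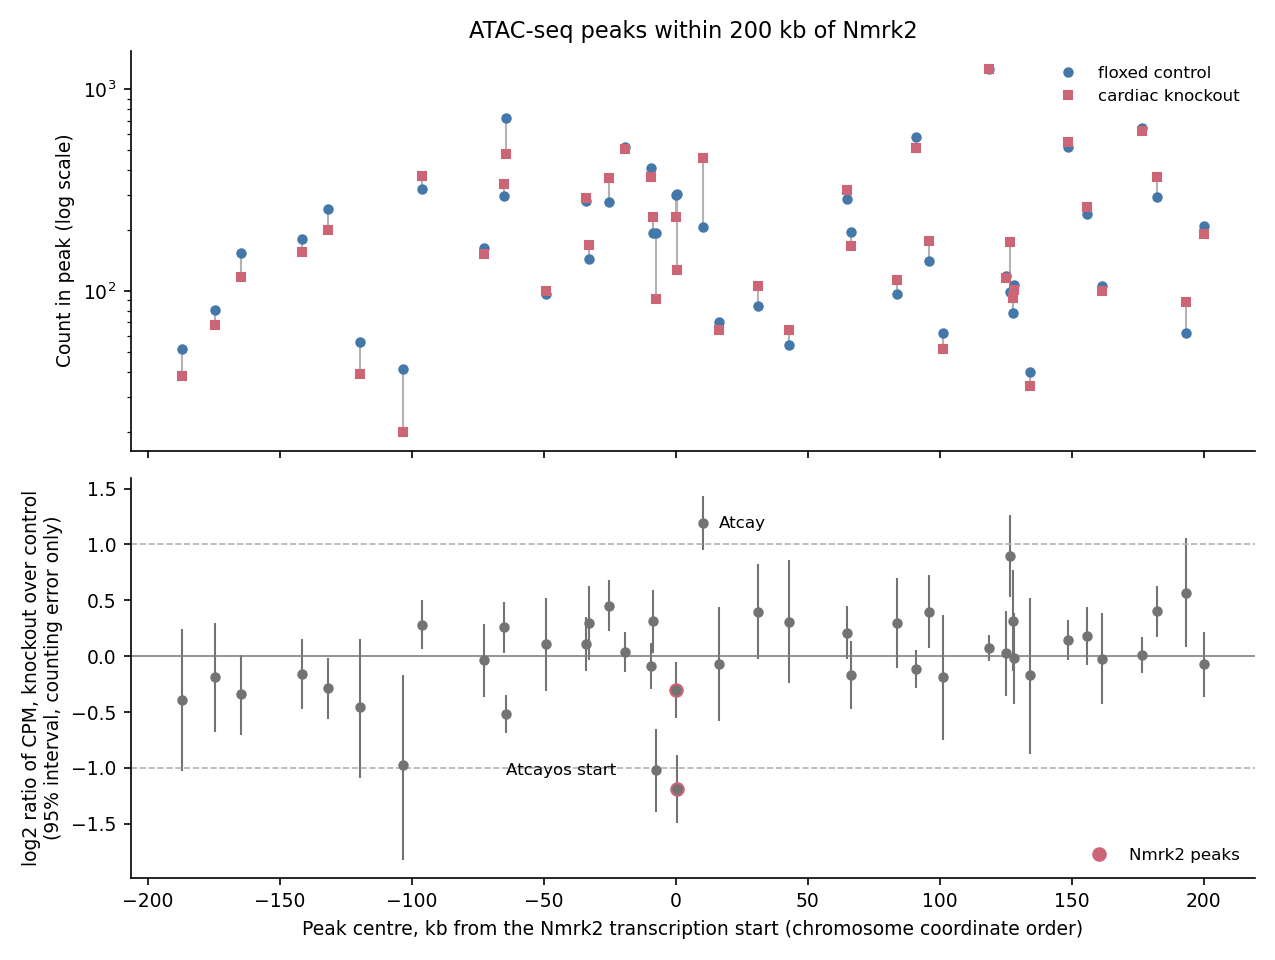
Counts per peak in each library (upper panel, log scale) and log2 ratio of CPM with its 95% counting interval (lower panel) for the 44 peaks within 200 kb of the Nmrk2 start, by distance in kb from that start. Dashed lines mark 2-fold, crossed downward by the upstream Nmrk2 peak and the peak at the Atcayos start and upward by the Atcay peak.

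By distance of log2 CPM over the 2 libraries, the promoters most like the stronger Nmrk2 peak, the one over the start, included those of Stard4 (298 and 234 counts) and Lrrk2 (303 and 234), with log2 ratios of -0.29 and -0.31. For the upstream peak, a comparison added after its value was seen, the nearest were Myh7, the slow cardiac myosin gene (281 and 134 counts), Wdr59 (269 and 128) and Kcnh2, a repolarising potassium channel gene (295 and 145). Likeness over 2 libraries says only that both levels are close.

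Nmrk1, the more widely expressed riboside kinase gene, had no peak of its own. Its RefSeq start lies 203 bp from that of the divergent gene Ostf1, and a single peak covers both (chromosome 19, 18631236 to 18632121). That peak was assigned to Ostf1 and held 430 counts in the control against 346 in the knockout, a ratio of 0.841 (0.728 to 0.971). The same holds for Nmnat1, the nuclear adenylyltransferase gene, whose start is 19 bp from that of Lzic. The peak over both (chromosome 4, 149484637 to 149485808) was assigned to Lzic, with 304 and 317 counts (1.09, 0.928 to 1.28). Neither value can be given to 1 gene of its pair.

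Nampt (ENSMUSG00000020572, chromosome 12, 32820335 to 32853369), the salvage enzyme gene, had small differences at its start and larger ones far upstream. The promoter peak from 32819890 held 430 counts in the control against 349 in the knockout (ratio 0.848, 0.734 to 0.979), and the next, from 32820599, 133 and 104 (0.817, 0.626 to 1.06). Both were lower in the knockout, the second by no more than counting error allows.

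Of the 2 intergenic peaks assigned to Nampt, that from 32765801 to 32766219, at -53326 bp from the start, held 114 counts in the control against 43 in the knockout, a ratio of 0.394 (0.271 to 0.564), and was called in both libraries. Its neighbour from 32768182 had 17 and 31 counts (1.91, 1.02 to 3.67), called in the knockout alone. The first made up 87.0% (80.0 to 92.3) of the counts of this pair in the control against 58.1% (46.1 to 69.5) in the knockout. Assignment at this distance is by nearest start and does not show that either peak acts on Nampt.

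Nmnat2 (ENSMUSG00000042751, chromosome 1, 152954781 to 153119266), the cytosolic adenylyltransferase gene best known from neurons, had the most peaks, 7, of 113 or more control counts at 2 and of 46 or fewer at the others. The peak over its annotated start, from 152954783 to 152955014, held 32 counts in the control against 5 in the knockout (ratio 0.163, 0.0497 to 0.422, called in the control alone). The next promoter peak, from 152956263, held 35 and 39. That near an inner start, from 153091794 and at -924 bp in the authors' annotation, held 117 and 134. Only the first of the 3 promoter peaks was thus low in the knockout library. The RefSeq start of Nmnat2, at 152955101, lies just outside that peak, and the peak overlaps the printed window.

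The 4 Nmnat2 intron peaks ranged in log2 ratio from -0.92 (38 and 19 counts) to 0.37 (46 and 57). That with most counts, from 153048103, held 113 and 76 (0.703, 0.518 to 0.948). With the trend of the ratio on level over all peaks removed by loess, the log2 ratio of the start peak was -0.92 in place of -2.50, under 2-fold.

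Nmnat3 (ENSMUSG00000032456, chromosome 9, 98287433 to 98420533), the mitochondrial adenylyltransferase gene, had 2 promoter peaks of opposite direction. That over the start, from 98296439, held 171 counts in the control against 125 in the knockout (ratio 0.764, 0.601 to 0.967). The inner one, from 98297246, held 34 and 56 (1.72, 1.10 to 2.72) and was called in the knockout alone. The start peak's share of the pair was 83.4% (77.6 to 88.2) in the control against 69.1% (61.8 to 75.7) in the knockout.

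Naprt and Nadk were closer to level. Naprt (ENSMUSG00000022574, chromosome 15, 75890963 to 75894481), of the nicotinic acid route, held 250 counts in the control against 218 in the knockout over its start, a ratio of 0.911 (0.756 to 1.10). Its other promoter peak held 53 and 48. Nadk (ENSMUSG00000029063, chromosome 4, 155562381 to 155591001), the NAD kinase gene, had the member peak with most counts, 712 and 591 counts from 155563288 to 155564245 (0.867, 0.776 to 0.968), and an intron peak with 39 and 34.

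Nnt (chromosome 13, 119335527 to 119409257), the transhydrogenase gene, matched 2 identifiers of the table by position, ENSMUSG00000025453 and ENSMUSG00000116207. The peak over the start, given to the first, held 268 counts in the control against 233 in the knockout (ratio 0.908, 0.759 to 1.09). The peak given to the second, 576 bp from the nearest start in the authors' annotation, held 94 and 125 (1.39, 1.05 to 1.84). A further peak lies over Nnt, in what the authors annotate as an exon, from 119339796 to 119340178, but was assigned to another identifier. It held 96 and 38 counts, a ratio of 0.414 (0.276 to 0.608), and was called in both libraries.

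**Figure D3:**
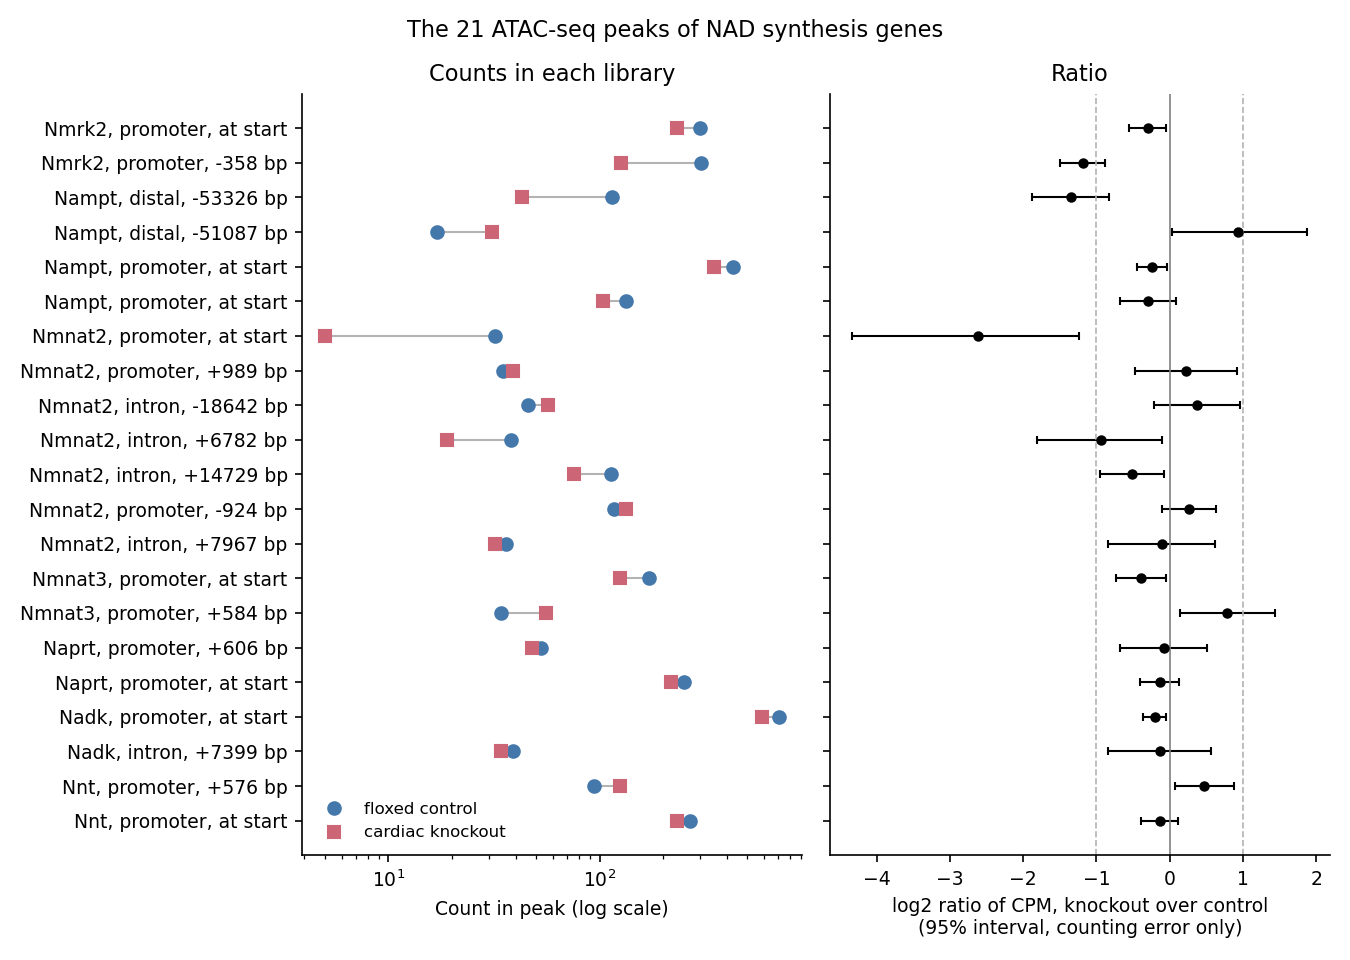
The 21 peaks assigned to the NAD synthesis genes, labelled by gene, class and the authors' distance to the nearest annotated start. The left panel gives counts in each library (log scale) and the right panel the log2 ratio of CPM with its 95% counting interval. The upstream Nmrk2 peak, the far Nampt peak and the Nmnat2 start peak lie below the 2-fold line at -1.

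Across the 21 peaks, 15 had a log2 ratio below 0 and 6 above, with a median of -0.14, against -0.05 over all peaks. For 9 of the 21 the counting interval lay below 1 and for 3 above, against 21.7% and 17.7% of all peaks. At least 2-fold lower in the knockout were 3 of the 21, against 8.96% of all peaks, and none was 2-fold higher, against 6.09%. The upstream Nmrk2 peak, at -1.18, was nearest past that line, and the nearest within it were an Nmnat2 intron peak at -0.92 and the nearer intergenic Nampt peak at 0.91. Among the 14 promoter peaks 2 were 2-fold lower and none higher, against 2.87% and 2.7% of all promoter peaks. Since the genes were picked on this contrast, nothing is read from these counts.

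At the strongest promoter peak of each gene, 6 of the 7 had a log2 ratio below 0, from -0.39 (Nmnat3) to 0.26 (Nmnat2), with a median of -0.21 against -0.02 over 13307 named genes. None of the 7 reached 2-fold. For Nmnat2 the strongest was the peak from 153091794, near an inner start, and not that over its annotated start, at -2.50. By CPM per kb in the control, the strongest promoter peaks ranked Nmrk2 (158), Nadk (110, interval 102 to 118), Nampt (108, 98.3 to 119), Naprt (46.4, 40.9 to 52.6), Nmnat3 (41.0, 35.1 to 47.7), Nnt (36.0, 31.8 to 40.6) and Nmnat2 (22.7, 18.8 to 27.2). The intervals of Nadk and Nampt overlapped, as did those of Naprt and Nmnat3 and of Nmnat3 and Nnt, and those of the other neighbours in this order did not. In the knockout the same peaks had 128, 95.4, 91.8, 42.3, 31.3, 32.7 and 27.2 CPM per kb, so that Nmnat3 and Nnt, which overlap in their intervals, changed places.

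Several introns held peaks that the table gives to other identifiers. Of 3 such peaks over Nmnat2, that from 153084181 had 71 counts in the control against 33 in the knockout (ratio 0.486, 0.311 to 0.744), and the others 129 and 105, and 47 and 58. Over Nmnat3, a peak from 98329456 had 46 and 70 (1.59, 1.08 to 2.36), and one from 98330738 had 39 and 25. The direction was mixed here as well.

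The wider NAD pathway was read from a list of 47 other genes, of which 37 had a promoter peak. The rest may include genes whose identifier was not matched to a symbol. At the strongest promoter peak 25 lay below 0 and 12 above, with a median log2 ratio of -0.09. None was 2-fold lower or higher, against 1.77% and 1.53% of all named genes. The counting interval lay below 1 for 7 of the 37 and above 1 for 2, against 16.5% and 13.5% of all named genes.

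Among the NAD consumers, 18 of 19 had a promoter peak, 13 below 0 and 5 above. Parp14, an interferon-induced mono-ADP-ribosyltransferase gene, had 84 counts in the control against 45 in the knockout (log2 ratio -0.83, called in the control alone). Parp4, the vault polymerase gene, had 198 and 144 (-0.39). In the other direction were Sirt7, the nucleolar sirtuin gene, with 203 and 273 (0.49, ratio 1.40, 1.17 to 1.69), and Parp9, with 82 and 105 (0.42). Cd38, the NAD glycohydrolase gene, named because it is the other gene whose interval lay above 1, had 159 and 198 (0.38). Sirt3, the mitochondrial sirtuin gene, had 329 and 261 (-0.27, ratio 0.829, 0.702 to 0.978). Those of Sirt1, 273 and 268, and Parp1, 288 and 250, were close to level.

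Both genes listed for nicotinamide methylation and oxidation were lower in the knockout library. Aox1, an aldehyde oxidase gene, had 252 counts in the control against 149 in the knockout (log2 ratio -0.69, ratio 0.618, 0.501 to 0.759). Nnmt, the nicotinamide methyltransferase gene, had 126 and 89 (-0.44, ratio 0.738, 0.556 to 0.976). The hydrolase gene Nudt12 had 59 and 43 (-0.39). Of the 4 regulators, Ppargc1a, a coactivator gene of mitochondrial biogenesis, had 154 and 100 (-0.56, ratio 0.678, 0.522 to 0.878). The other regulators, Prkaa1 and Prkaa2 of the energy-sensing kinase AMPK and the lipid receptor gene Ppara, lay between -0.28 and 0.10.

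Of the kynurenine route, which builds NAD from tryptophan and is a liver pathway, 2 of 9 genes had a promoter peak, Ido1 with 68 and 60 counts and Ido2 with 51 and 53. Nadsyn1, which amidates the last intermediate of that route, had 502 and 518. Nadk2, the mitochondrial NAD kinase gene, had 406 and 396. Slc25a51, the carrier of NAD into mitochondria, had 367 and 384. Log2 ratios of these 5 genes lay between -0.12 and 0.13. Nt5e, whose ectoenzyme dephosphorylates nicotinamide mononucleotide outside the cell, had 321 and 238 (-0.37, ratio 0.775, 0.652 to 0.919).

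**Figure D4:**
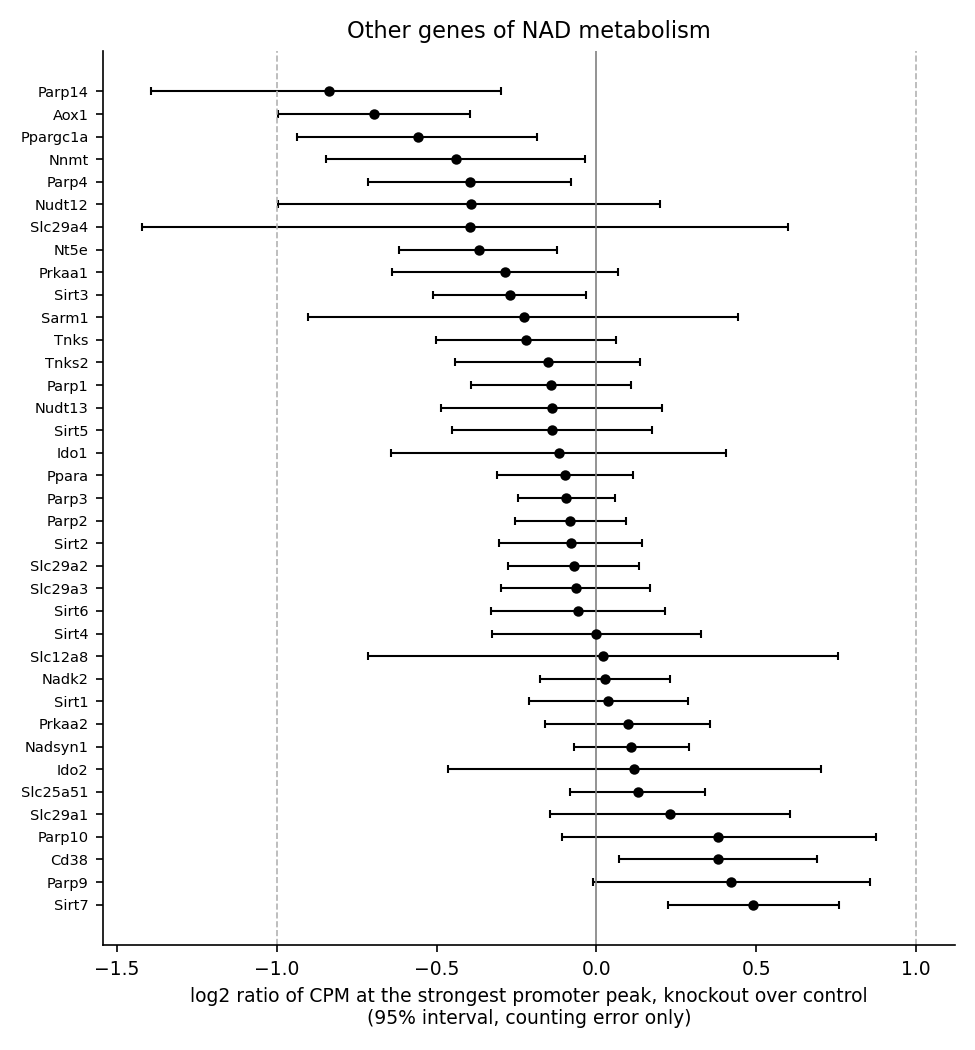
Log2 ratio of CPM at the strongest promoter peak, with its 95% counting interval, for the 37 of 47 other NAD pathway genes that had one, ordered by ratio. All lie inside the dashed 2-fold lines, from Parp14 at -0.83 to Sirt7 at 0.49.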

How the data were processed

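Chromatin accessibility was measured in 1 heart library per genotype, grouped by the genotype label. The authors deposited 1 table of peaks merged over both libraries. Its counts are whole numbers per peak, not normalized, per the file headers. The authors' RPM values equal (count + 1) times 1 constant per library, within 0.0005%, and their log2 fold change is the log2 ratio of those RPM values. The authors' fold enrichment, a ratio per peak, was not used. BWA, MACS2 and build GRCm38.p6 are named per the submitters' processing notes, without versions; the sources used here do not give read filters, duplicate removal or the Tn5 shift. Coordinates are as deposited.

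Counts were scaled to CPM over all 58076 peaks, and log2 ratios used 0.5 added counts. Intervals are exact (Clopper-Pearson for ratios and shares, Poisson for levels) at 95% and cover counting error only; reads without molecular identifiers are not independent molecules. No p-value was computed. Median counts per peak were 65 and 60.

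The table gives Ensembl identifiers. They took a RefSeq symbol on the same strand where their spans overlapped by at least 0.5 of the joint length, 2 times the next gene's overlap, or both ends lay within 1 kb, or, for identifiers with gene ontology terms, where at least 95% lay inside 1 coding gene without another identifier. Of 24480 identifiers 18593 (76.0%) were named. The 9 genes, the lists and the tests were chosen with earlier results of these data known. Named were all members, the 8 pathway genes with the largest promoter difference, genes within 200 kb of Nmrk2 and those of the 3 promoters nearest in level that are reported here; other pathway genes named (Cd38, Sirt3, Nt5e, Sirt1, Parp1, Prkaa1, Prkaa2, Ppara, Ido1, Ido2, Nadsyn1, Nadk2, Slc25a51) and the genes nearest the upstream peak were chosen after their values were seen. Alternatives were other scalings (TMM from edgeR 4.0.16, median-of-ratios size factors, the authors' RPM, loess), added counts, signal and peak calling filters, fold rule, promoter definition and gene span. Only the ratio interval and the 2-fold rule were tried on simulated data, Poisson counts with equal library totals. Such counts meet the interval's own assumption, so its coverage there was fixed in advance. Python 3.11.15, scipy 1.17.1 and statsmodels 0.14.6 were used. A nearest promoter and an intron peak are not reported here.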

Additional observations from a re-analysis of the deposited data

How the results depend on the processing

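The median log2 ratio of all peaks, -0.05, was 0.0004 with TMM and -0.22 on the authors' RPM scale, which lowers each ratio by about 0.17. On the RPM scale the median at the members' strongest promoters was -0.38 in place of -0.21, and that of the other NAD pathway genes -0.27 in place of -0.09. Member peaks at least 2-fold lower, 3 of 21, numbered 4 on the RPM scale, 4 past 1.5-fold, 2 with the loess trend removed, 2 of the 14 with a mean count of at least 50, and 1 of the 14 called in both libraries. Those 2-fold higher, none, numbered 1 with loess and 2 past 1.5-fold. Of 105 alternative values of single member peaks, 103 stayed within their counting interval. The others were the Nadk promoter on the RPM scale (-0.38) and the Nmnat2 start peak with loess (-0.92). The upstream Nmrk2 peak ran from -1.35 to -1.13 over the 5 other scalings and added counts, and the Nmrk2 start peak from -0.47 to -0.25. The sign differed for 2 of the 21 peaks, intron peaks of Nadk and Nmnat2, which had log2 ratios of 0.02 and 0.08 with loess, in place of -0.13 and -0.10. The cause of these shifts was not tested. No paired analysis was possible because there is 1 library per genotype. Peaks under 50 counts limit what single ratios can show.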
